A study of Mus musculus with 14 samples.

Results

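The minichromosome maintenance (MCM) helicase is the ring that unwinds DNA at replication forks, and its subunits, binding protein and licensing regulators are described here across mouse oocytes that overexpressed Rnaseh1, mCherry, or Rnaseh1 with Supt6. The group has 10 genes out of 35389 identifiers in one deposited table and 35341 symbols in the other: the ring subunits Mcm2, Mcm3, Mcm4, Mcm5, Mcm6 and Mcm7, the MCM-binding protein gene Mcmbp, the helicase cofactor Cdc45, the loading factor Cdt1 and its inhibitor Gmnn. They were chosen by symbol, and Mcmbp was taken up because it was high with Rnaseh1 in SN oocytes. Its values in that contrast are therefore a description. All 10 genes were found in both tables and passed the filter, a level of 1 TPM or more in 2 or more libraries (TPM is transcript abundance corrected for length and scaled to a fixed total per library).

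Licensing is the step in which the origin recognition complex, Cdc6 and Cdt1 place the MCM ring on DNA as an inactive pair of hexamers before S phase. The kinases Cdc7 and Cdk2 then switch the ring on, Cdc45 and the GINS proteins join it to form the working helicase, and geminin, the product of Gmnn, binds Cdt1 so that no origin is licensed again in the same cycle. The MCM-binding protein binds newly made MCM subunits and takes part in their assembly and removal. A full-grown oocyte is arrested in meiotic prophase and does not replicate its DNA, and its licensing transcripts are part of the store that the embryo inherits.

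RNase H1, encoded by Rnaseh1, degrades RNA that is paired with DNA, as in R-loops. Supt6 encodes a histone chaperone that travels with RNA polymerase II, and mCherry, a fluorescent protein, was the control. NSN oocytes, in which chromatin does not yet ring the nucleolus, and later SN oocytes, in which it does, each received mCherry or Rnaseh1, which makes 4 groups and 8 libraries. A separate rescue set has 6 libraries in 3 groups (mCherry, Rnaseh1, and Rnaseh1 plus Supt6), for which no nucleolar stage is labelled. Every group has 2 libraries. Strain, age, the way of overexpression and the number of oocytes or animals behind a library are not given in the sources used here, so p-values measure the spread between libraries, which may be technical.

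Rnaseh1 was higher in each library labelled with it than in each mCherry library of its set. It stood at 745 and 229 TPM in NSN Rnaseh1 oocytes against 137 and 108 TPM with mCherry, and at 1361 and 1083 TPM in SN Rnaseh1 oocytes against 81.0 and 131 TPM. In the rescue set it was 1243 and 625 TPM with Rnaseh1, 2270 and 2017 TPM with Rnaseh1 plus Supt6, and 125 and 114 TPM with mCherry, so the combined group held more Rnaseh1 RNA than the Rnaseh1 group. Supt6 was at 28.2 and 21.0 TPM in the combined group and between 2.55 and 3.28 TPM in the other 4 rescue libraries. All 12 oocyte markers listed were detected, with summed levels from 18667 to 27078 TPM over the 14 libraries. The 12 granulosa and cumulus markers summed to between 24.9 and 55.3 TPM, mostly from Cyp19a1, with Amh, Foxl2 and Amhr2 at 0 in all 14. In NSN Rnaseh1 and in SN mCherry the 2 libraries lay further apart than in any other group: the SD across genes of their log2 difference was 1.28 and 1.05, against 0.35 to 0.69 elsewhere. Some NSN and SN values were also computed without NSN Rnaseh1 replicate 2 and SN mCherry replicate 2. These are log2 fold changes of the ring subunits, Mcmbp, Cdc45, Cdt1 and Gmnn, not all of which are printed below. No such value is given for other genes, for counts by overlap or for correlations with GC content.

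The regions just upstream of 5 of the genes are printed because Mcm2, Mcm5 and Mcm6, which are among the 5 ring subunits that fell in the rescue set, can be set beside Mcm3, which did not pass, and Mcmbp, which rose. The sequences are from RefSeq on GRCm38.p6, read 5′ to 3′ on the strand of the gene and ending at the RefSeq transcript start, except for Mcmbp, where the stretch that falls within an annotated exon was left out. Capitals mark matches, on either strand, to 4 letter forms of the E2F site (TTTCCCGC, TTTCGCGC, TTTGCCGC, TTTGGCGC) and to CCAAT, which reads ATTGG on the other strand. They span chr6:88898781-88899030 for Mcm2, chr1:20820313-20820562 for Mcm3, chr8:75109259-75109508 for Mcm5, chr1:128359706-128359955 for Mcm6 and chr7:128740496-128740679 for Mcmbp, with Mcm5 on the plus strand and the others on the minus strand.
Mcm2: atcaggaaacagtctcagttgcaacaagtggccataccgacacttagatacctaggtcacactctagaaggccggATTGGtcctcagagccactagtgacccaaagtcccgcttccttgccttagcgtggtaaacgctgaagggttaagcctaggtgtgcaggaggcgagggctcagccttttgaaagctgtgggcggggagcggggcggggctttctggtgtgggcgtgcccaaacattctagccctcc
Mcm3: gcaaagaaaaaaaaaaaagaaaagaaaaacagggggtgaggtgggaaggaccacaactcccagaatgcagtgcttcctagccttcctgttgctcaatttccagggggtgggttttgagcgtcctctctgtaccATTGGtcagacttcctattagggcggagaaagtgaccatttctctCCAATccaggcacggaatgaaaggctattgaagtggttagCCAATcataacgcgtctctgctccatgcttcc
Mcm5: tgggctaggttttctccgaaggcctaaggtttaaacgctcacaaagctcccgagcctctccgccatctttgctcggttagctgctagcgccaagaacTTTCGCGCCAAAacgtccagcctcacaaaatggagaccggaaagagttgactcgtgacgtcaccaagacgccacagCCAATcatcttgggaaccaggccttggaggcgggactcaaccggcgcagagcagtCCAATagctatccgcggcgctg
Mcm6: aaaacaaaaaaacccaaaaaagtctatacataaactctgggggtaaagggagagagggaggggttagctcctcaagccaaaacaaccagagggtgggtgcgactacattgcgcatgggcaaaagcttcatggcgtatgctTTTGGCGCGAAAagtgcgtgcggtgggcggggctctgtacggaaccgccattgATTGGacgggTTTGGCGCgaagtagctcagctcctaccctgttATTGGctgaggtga
Mcmbp: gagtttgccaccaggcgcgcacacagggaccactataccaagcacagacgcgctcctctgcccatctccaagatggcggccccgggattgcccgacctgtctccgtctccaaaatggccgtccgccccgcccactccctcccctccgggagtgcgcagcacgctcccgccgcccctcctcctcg
Mcm5 held 2 E2F matches that overlap each other, at 153 to 146 and 149 to 142 bases before the start. Mcm6 held 3, of which 2 overlap at 110 to 103 and 106 to 99 bases before the start and the third lies at 47 to 40 bases. Mcmbp had 1 in the part left out (25 to 18 bases before the start), and Mcm7 had 1 upstream of the earlier of its RefSeq starts, inside annotated exons of Mcm7 and of the neighbouring gene Ap4m1. Over 250 bases before the start, 4 of the 8 genes in the table held an E2F match, against 2.16% of 27025 genes, and 6 of 8 held CCAAT, against 37.5%, a gene being counted if any of its promoters held a match. Counted by promoter, the shares were 1.86% and 33.8% of 32851. Mcm2, with 1 CCAAT match, and Mcm3, with 3, held none of the 4 E2F forms in this window. A match is a description of these letters and not a site shown to be bound.

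In the rescue set, 5 of the 6 ring subunits fell with Rnaseh1 and Mcm3 did not pass the test. Over the 10 genes, 7 fell and 2 rose (limma, Benjamini-Hochberg adjusted p under 0.05), on a background in which 66.5% of the 12859 genes tested passed, 46.2% lower and 20.3% higher. For all 10 genes the 2 groups did not overlap: 7 were lower with Rnaseh1 and 3 higher, against 54.8% and 26.4% of all genes. The median of the 10 log2 fold changes was -1.14, against -0.52 for all genes tested. Of 6 listed markers of cycling cells, 5 were found in the rescue table, and their sum was 285 and 309 TPM with mCherry, 246 and 249 TPM with Rnaseh1 and 315 and 333 TPM with Supt6 added. Most of it came from Tyms, Pclaf was at 0 in 5 of the 6 libraries, and the part of these markers in the result was not tested.

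Mcm2, a subunit that also binds histones H3 and H4, was at 71.6 and 83.5 TPM with mCherry and at 8.24 and 6.72 TPM with Rnaseh1. All Rnaseh1 libraries were far below all mCherry libraries, and the log2 fold change was -3.21 (SE 0.16, limma adjusted p = 4.03e-06). Of the genes tested, 3.86% had a lower value. Mcm5, which sits beside Mcm2 at the gate through which the ring opens, was at 129 and 155 TPM with mCherry and at 51.6 and 54.5 TPM with Rnaseh1. The groups did not overlap, and Mcm5 changed from the highest of the 6 subunits in both mCherry libraries to a level below Mcm3 and Mcm4 in both Rnaseh1 libraries (log2 fold change -1.40, SE 0.12, limma adjusted p = 4.39e-05). Mcm6 was at 86.0 and 94.0 TPM with mCherry and at 45.6 and 43.4 TPM with Rnaseh1, again without overlap (-0.999, SE 0.11, limma adjusted p = 0.000164).

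Mcm4, which carries a tail that the Cdc7 kinase phosphorylates, was at 94.7 and 109 TPM with mCherry and at 61.1 and 57.4 TPM with Rnaseh1. Its libraries did not overlap, and its log2 fold change of -0.77 (limma adjusted p = 0.000843) was nearer to 0 than those of the other 4 subunits that fell. After each library was centred on its median gene, which moved the median of all genes from -0.52 to 0.06, Mcm4 was at -0.18 and no longer passed (limma adjusted p = 0.159). Mcm7, the least abundant subunit in both mCherry libraries, was at 45.1 and 42.4 TPM with mCherry and at 19.0 and 15.9 TPM with Rnaseh1. The groups stood apart (-1.28, SE 0.15, limma adjusted p = 0.000226), but with the trend of each library with transcript GC content removed the value was -0.032 (limma adjusted p = 0.856).

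Mcm3 was the exception among the subunits. It was at 54.8 and 51.5 TPM with mCherry and at 58.1 and 67.7 TPM with Rnaseh1, so that both Rnaseh1 libraries were slightly higher (0.24, SE 0.15, limma adjusted p = 0.196). Relative to other genes it was higher: the value was 0.82 after median centring, 0.70 after quantile normalization and 1.37 with the GC trend removed, and passed in each (limma adjusted p of 0.00207, 0.00449 and 0.000263). Within a library the Mcm2 level over the Mcm3 level was 1.46 ± 0.22 (SD, n = 2) with mCherry and 0.12 ± 0.03 (SD, n = 2) with Rnaseh1. The sum of the 6 subunits was 481 and 535 TPM with mCherry and 244 and 246 TPM with Rnaseh1. The highest subunit was 2.85 and 3.65 times the lowest with mCherry, and 7.41 and 10.1 times with Rnaseh1, so the levels of the subunits were less even in both Rnaseh1 libraries.

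**Figure D1:**
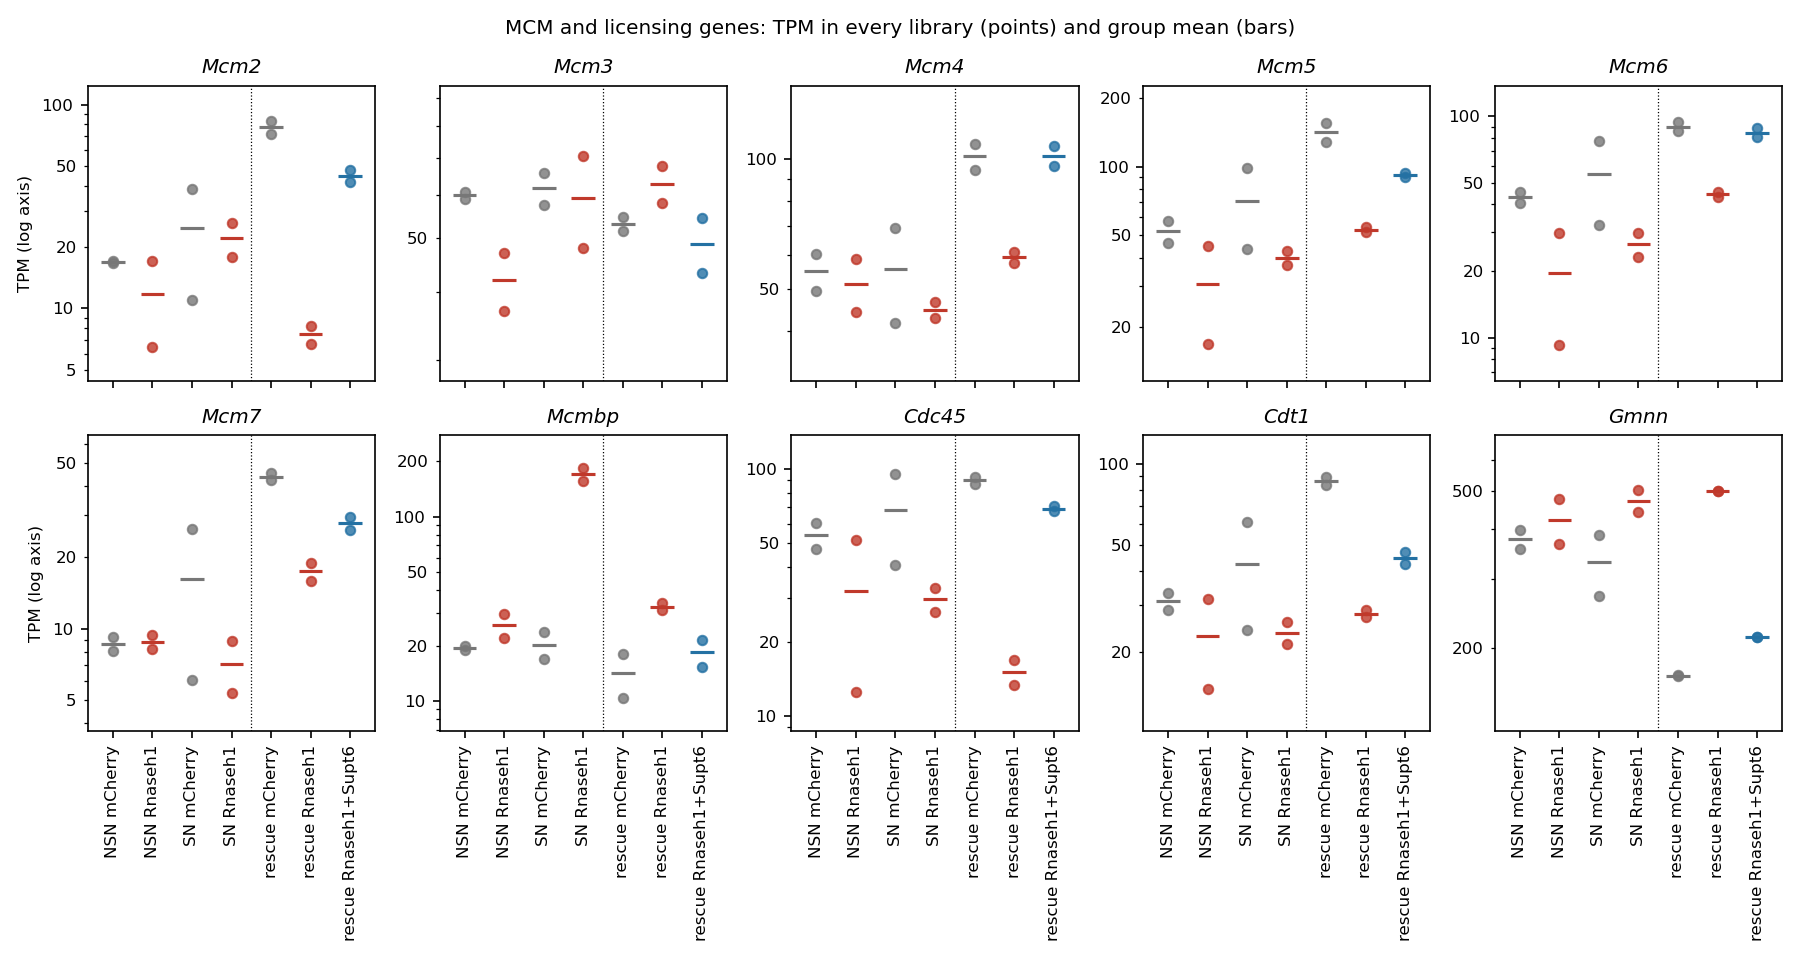
TPM of the 10 genes in every library (points, log axis) with group means (bars), the NSN and SN table to the left of each dotted line and the rescue set to the right; the 2 tables were made separately. Mcmbp reaches 157 and 184 TPM in SN Rnaseh1 oocytes and 34.0 TPM at most elsewhere, and Mcm2 drops from 71.6 and 83.5 TPM to 8.24 and 6.72 TPM between the rescue mCherry and Rnaseh1 libraries.

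Mcmbp moved in the other direction from the ring subunits that fell in the rescue set, and in the same direction as Mcm3, which did not pass. There Mcmbp was at 18.0 and 10.4 TPM with mCherry and at 34.0 and 31.1 TPM with Rnaseh1. Both Rnaseh1 libraries were above both mCherry libraries, and it rose by 1.19 on the log2 scale (SE 0.27, limma adjusted p = 0.00656). The call held in all 17 alternatives, with values from 0.82 to 1.84. Of the genes tested, 89.8% had a lower value. In SN oocytes Mcmbp was at 16.9 and 23.6 TPM with mCherry and at 157 and 184 TPM with Rnaseh1, the contrast for which it was picked. There it ranked second to Gmnn among the 10 genes, after having been ninth with SN mCherry, and its level over that of Mcm3 was 2.94 ± 0.46 (SD, n = 2) against 0.33 ± 0.11. In NSN oocytes it was at 19.8 and 18.9 TPM with mCherry and at 21.9 and 29.8 TPM with Rnaseh1. These libraries did not overlap either, but the difference of 0.38 (SE 0.36) was not past the threshold (limma adjusted p = 0.757). The log2 difference from mCherry was thus 3.03 in SN, 0.38 in NSN and 1.19 in the rescue set, where the level with Rnaseh1 reached 34.0 TPM at most.

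Among genes with a mean of at least 10 TPM, the 5 whose profile over the 8 NSN and SN libraries was most like that of Mcmbp were Copb1, Yipf6, Nae1, Rab2a and Ebag9, with Pearson's r between 0.97 and 0.98 on the log2(TPM + 1) scale. Such an r rests mostly on the SN Rnaseh1 libraries standing apart from the other 6. Copb1, a subunit of the COPI vesicle coat, was at 990 and 1436 TPM in SN Rnaseh1 and at 252 TPM in both SN mCherry libraries. Ebag9 was between 67.4 and 75.0 TPM in SN Rnaseh1 and between 14.1 and 21.0 TPM in the other 6. Over the 6 rescue libraries r with Mcmbp ran from 0.54 for Yipf6 to 0.93 for Nae1, which encodes a subunit of the enzyme that activates NEDD8. Among the other 9 genes of the group, r with Mcmbp over the 8 libraries ran from -0.41 for Mcm4 to 0.58 for Gmnn. Over the 6 rescue libraries it ran from -0.92 for Mcm5 to 0.88 for Gmnn. In that set 66.5% of all genes tested passed between Rnaseh1 and mCherry, so a large r of either sign can rest on the differences between groups. The share of all genes with such an r is not given.

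Cdc45, which holds the MCM ring and GINS together at the fork, had the second lowest log2 fold change of the 10 genes in the rescue set, after Mcm2. It was at 87.4 and 93.0 TPM with mCherry and at 13.4 and 16.8 TPM with Rnaseh1, with no overlap. The log2 fold change was -2.51 (SE 0.14, limma adjusted p = 6.08e-06), and -1.90 with the GC trend removed.

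The loading factor and its inhibitor went in opposite directions. Cdt1 was at 89.9 and 83.3 TPM with mCherry and at 28.5 and 26.9 TPM with Rnaseh1, without overlap (-1.61, SE 0.12, limma adjusted p = 2.27e-05). Its transcript is the richest in GC of the 10, at 57.8%, above 93.2% of the genes tested, and with the GC trend removed its value was 0.045 (limma adjusted p = 0.761). Gmnn was the most abundant of the 10 genes in all 14 libraries. It was at 170 and 171 TPM with mCherry and at 500 and 502 TPM with Rnaseh1, and it rose by 1.55 (SE 0.07, limma adjusted p = 3.09e-06), or by 2.25 with the GC trend removed. The Gmnn level over the Cdt1 level was 1.97 ± 0.11 (SD, n = 2) with mCherry and 18.1 ± 0.81 with Rnaseh1. With mCherry it was already 12.3 ± 2.15 in NSN oocytes and 10.3 ± 8.29 in SN oocytes. With Rnaseh1 it was 22.4 ± 15.1 and 20.1 ± 0.77 there. A mean ratio near 2 with mCherry was thus particular to the rescue set, which was made separately.

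**Figure D2:**
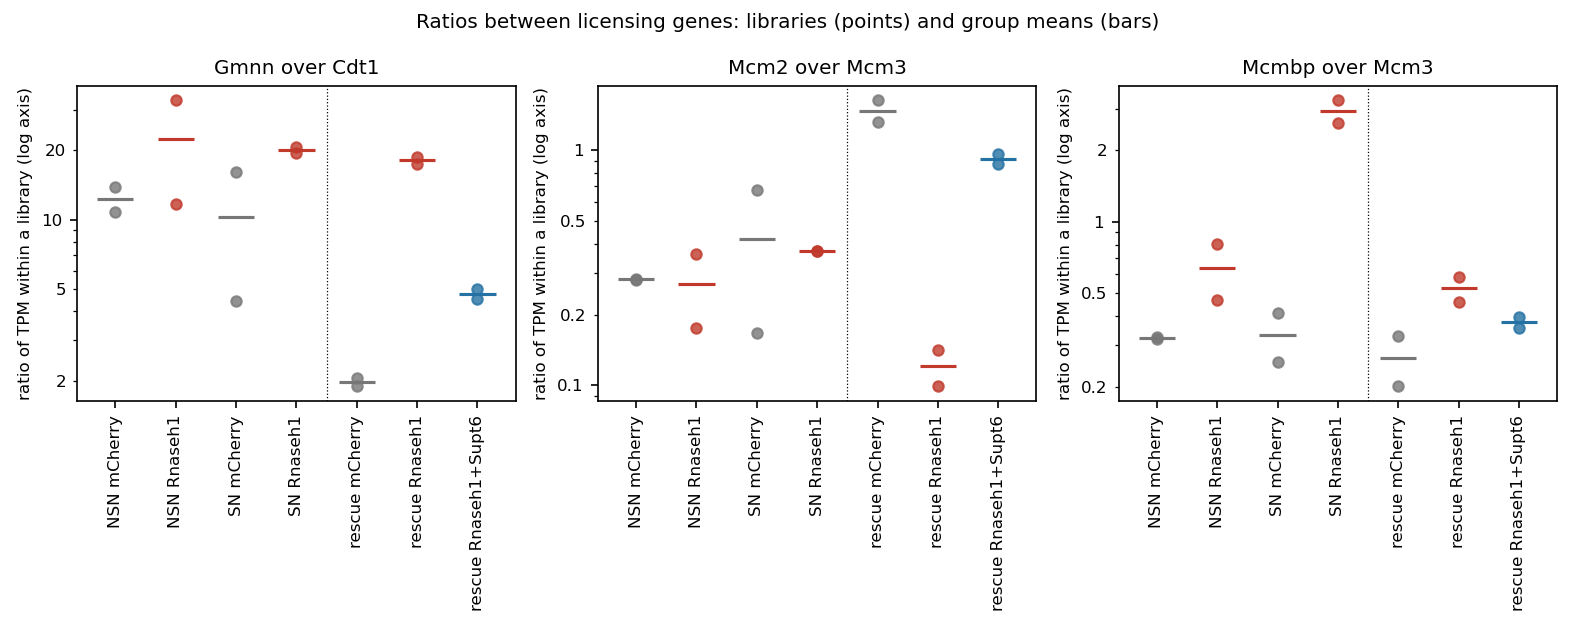
Ratios of TPM within a library (points, log axis) with group means (bars) for Gmnn over Cdt1, Mcm2 over Mcm3 and Mcmbp over Mcm3. Gmnn over Cdt1 is near 2 in the rescue mCherry libraries (1.89 and 2.05) and 17.5 and 18.7 in the rescue Rnaseh1 libraries. In the other mCherry libraries it is higher, at 13.8 and 10.8 in NSN and 16.2 and 4.45 in SN. Mcmbp over Mcm3 exceeds 1 in the SN Rnaseh1 libraries alone.

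Transcript GC content moved with these differences. Across the 12603 genes with a GC value the log2 fold change of Rnaseh1 against mCherry in the rescue set had a rank correlation of -0.50 with GC content, a description across genes, which are not independent replicates. The median gene tested had 48.4% GC. Cdt1 (57.8%), Mcm7 (53.4%), Mcm3 (52.6%), Mcm5 (51.9%) and Mcm2 (51.7%) lay above it, and so did Gmnn (49.8%) and Cdc45 (49.3%). Mcm6 (47.3%), Mcmbp (46.9%) and Mcm4 (45.5%) lay below. With the trend removed, 5 of the 10 genes fell (Mcm2 at -2.20, Cdc45 at -1.90, Mcm6 at -0.66, Mcm4 at -0.62 and Mcm5 at -0.35) and 3 rose (Gmnn, Mcmbp and Mcm3), where 28.9% and 27.6% of all genes did. After median centring 6 fell and 3 rose, against 30.3% and 33.4% of all genes. Its part in the differences was not tested. In bulk RNA scaled to a fixed total, less RNA of a gene per oocyte cannot be told apart from more RNA of other genes, or from fewer oocytes that hold it. Since polyadenylated RNA was reverse-transcribed, these values do not give the total RNA of a gene either.

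**Figure D3:**
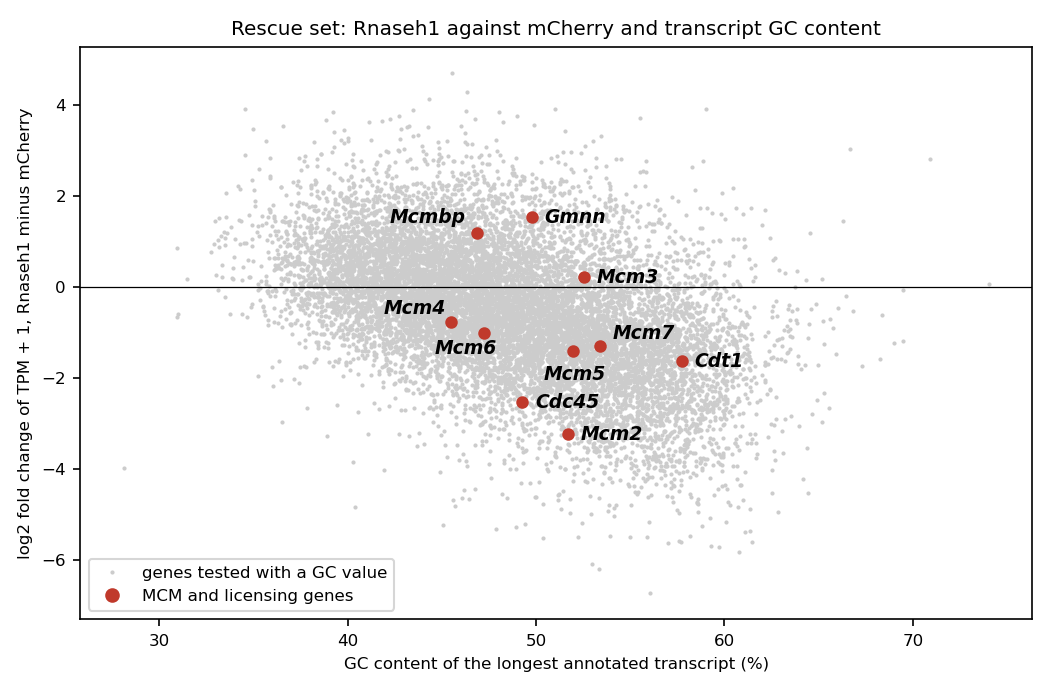
log2 fold change of TPM + 1 in the rescue set (Rnaseh1 minus mCherry) against the GC content of the longest annotated transcript for the 12603 genes tested that have a GC value (grey) and for the 10 genes (red). The cloud slopes downwards with a rank correlation of -0.50. Of the genes tested, 3.86% have a lower log2 fold change than Mcm2, 8.70% than Cdc45 and 93.8% than Gmnn.

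With Supt6 added to Rnaseh1 the levels of most of the group lay between those of the other 2 rescue groups or near mCherry. Against Rnaseh1 alone, 7 of the 10 genes rose and 2 fell, where 58.9% of all genes passed, 41.6% higher and 17.4% lower. By libraries that do not overlap, 7 were higher and 3 lower, against 54.5% and 25.5% of all genes. Against mCherry, 4 fell and 1 rose, where 13.3% of all genes passed, 7.6% lower and 5.71% higher, and 5 were lower and 1 higher without overlap, against 34.5% and 26.8%. These comparisons share libraries with each other and with that of Rnaseh1 against mCherry.

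Mcm2 was at 41.5 and 47.6 TPM in the combined group, well above both Rnaseh1 libraries and below both mCherry libraries. It rose by 2.43 against Rnaseh1 (SE 0.16, limma adjusted p = 1.97e-05) and stood at -0.78 against mCherry (limma adjusted p = 0.0233). Cdc45 was at 67.4 and 71.0 TPM, 2.14 above Rnaseh1 on the log2 scale (limma adjusted p = 1.85e-05). Its difference from mCherry of -0.38 did not pass (limma adjusted p = 0.126). Mcm4 was at 96.4 and 107 TPM and Mcm6 at 80.4 and 88.3 TPM, and both overlapped their mCherry libraries (log2 differences of 0.0048 and -0.093) while they rose against Rnaseh1 by 0.77 and 0.91.

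Mcm5, Mcm7 and Cdt1 stayed below mCherry. Mcm5 was at 90.3 and 93.6 TPM and Mcm7 at 26.0 and 29.5 TPM, both without overlap with mCherry, at log2 fold changes of -0.61 (limma adjusted p = 0.0195) and -0.64 (limma adjusted p = 0.0344). Cdt1 was at 42.5 and 47.2 TPM, about midway on the log scale between the other groups, at -0.94 against mCherry (limma adjusted p = 0.00613). With the GC trend removed, Mcm5 (-0.43) and Mcm7 (-0.38) no longer passed against mCherry (limma adjusted p of 0.0504 and 0.143). Cdt1 still did (-0.50, limma adjusted p = 0.0418). Against Rnaseh1, Mcm5 rose by 0.78, Mcm7 by 0.64 and Cdt1 by 0.67, but with the GC trend removed these values changed sign to -0.081, -0.35 and -0.54, of which that of Cdt1 passed (limma adjusted p = 0.00783). Mcm3 was at 43.3 and 54.6 TPM and overlapped mCherry, with a difference of -0.13 (limma adjusted p = 0.658) and from Rnaseh1 of -0.36 (limma adjusted p = 0.0706).

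The 2 genes that had risen with Rnaseh1 were lower when Supt6 was added. Gmnn was at 213 TPM in both combined libraries, 1.23 below Rnaseh1 on the log2 scale (SE 0.07, limma adjusted p = 1.2e-05) and 0.32 above mCherry (limma adjusted p = 0.0317). Mcmbp was at 15.4 and 21.6 TPM, below both Rnaseh1 libraries and overlapping mCherry. It fell by 0.80 against Rnaseh1 (SE 0.27, limma adjusted p = 0.0377) and differed from mCherry by 0.39 (limma adjusted p = 0.422). Gmnn over Cdt1 was 4.76 ± 0.36 (SD, n = 2), Mcm2 over Mcm3 was 0.92 ± 0.06, and the sum of the 6 subunits was 378 and 421 TPM. With the GC trend removed, 4 genes rose and 4 fell against Rnaseh1 (25.6% and 24.7% of all genes), and 1 rose and 2 fell against mCherry (6.93% and 4.03%). After median centring, 3 rose (Mcm2, Cdc45 and Mcm6) and 3 fell (Gmnn, Mcmbp and Mcm3) against Rnaseh1 (26.2% and 30% of all genes), and 1 rose and 4 fell against mCherry (7.15% and 6.28%). The 5 calls against mCherry rest on all 4 libraries compared: leaving out either combined library or mCherry replicate 2 left 0 calls, and leaving out mCherry replicate 1 left 1. The fall of Mcmbp against Rnaseh1 did not pass without either Rnaseh1 library or without combined replicate 1 (limma adjusted p from 0.0651 to 0.207), nor with no filter (0.0921), and the rise of Mcm7 did not pass without combined replicate 2 (0.0724).

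**Figure D4:**
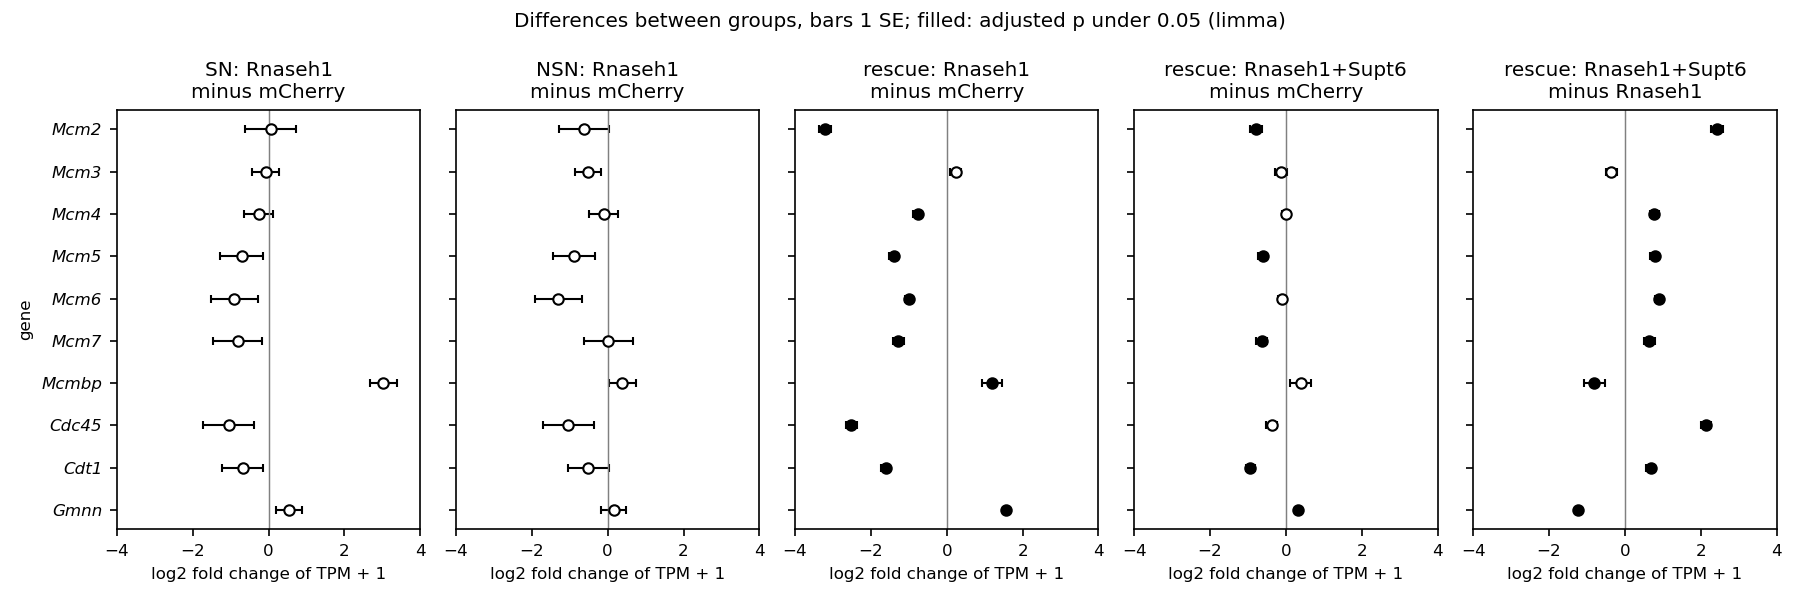
log2 fold changes of TPM + 1 of the 10 genes in 5 comparisons (points, with bars of 1 SE; filled where the limma adjusted p was under 0.05). In the rescue panels most points that lie left of 0 with Rnaseh1 lie right of 0 when Supt6 is added to Rnaseh1, and the SN and NSN panels have wide bars and no filled point.

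In NSN and SN oocytes 0 of the 10 genes passed the threshold in any of the 5 comparisons, and 0% of the 12736 genes tested did. The overexpressed Rnaseh1 itself did not pass against mCherry, at 3.55 in SN (limma adjusted p = 0.407) and 1.76 in NSN (limma adjusted p = 0.755). A lack of calls here thus does not show that a gene was unchanged. At an unadjusted p under 0.05, limma gave 859 genes for Rnaseh1 against mCherry in SN and 353 in NSN, 288 for the difference between these effects, 328 for SN against NSN with mCherry and 584 with Rnaseh1. For Rnaseh1 in NSN 0 of the 10 genes were among them. The exact permutation test of 2 libraries against 2 cannot go below p = 0.333. Without the 2 libraries that stood apart, SN mCherry and NSN Rnaseh1 have 1 library each, so values without them are given with no test. Mcmbp was then at 3.26 in SN and at 0.17 in NSN.

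No ring gene passed in either stage, and the median log2 fold change of all genes was itself below 0, at -0.22 in SN and -0.29 in NSN. Mcm6 was at 45.8 and 40.5 TPM with NSN mCherry and at 29.9 and 9.30 TPM with NSN Rnaseh1, without overlap (-1.30, SE 0.62). In SN it was at 32.4 and 77.4 TPM with mCherry and at 23.1 and 29.9 TPM with Rnaseh1, also without overlap (-0.91, SE 0.62). The highest (77.4 TPM) and the lowest (9.30 TPM) of these values come from the libraries that stood apart, and without them Mcm6 was at -0.51 in NSN and -0.29 in SN. Mcm5 was at 46.2 and 58.0 TPM against 44.8 and 16.8 TPM in NSN (-0.89, SE 0.56), and at 43.6 and 98.2 TPM against 37.0 and 42.7 TPM in SN (-0.71, SE 0.56). It overlapped in neither stage, although the nearest libraries differed by little, and without the libraries that stood apart it was at -0.20 in NSN and -0.13 in SN.

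Cdc45 was at 60.8 and 47.3 TPM with mCherry and at 51.5 and 12.5 TPM with Rnaseh1 in NSN, which overlapped (-1.03, SE 0.68), and at 41.0 and 95.3 TPM against 26.5 and 33.1 TPM in SN, which did not (-1.05, SE 0.68). Without the libraries that stood apart Cdc45 was at -0.056 in NSN and -0.46 in SN. Mcm3 was at 60.9 and 59.0 TPM against 47.0 and 36.9 TPM in NSN (-0.51, SE 0.35) and at 65.9 and 57.5 TPM against 48.1 and 70.6 TPM in SN (-0.08, SE 0.35). The NSN groups of Mcm3 stood apart and the SN groups overlapped. Gmnn was at 388 and 271 TPM with SN mCherry and at 504 and 442 TPM with SN Rnaseh1, without overlap (0.54, SE 0.33). In NSN it was at 398 and 357 TPM against 368 and 479 TPM, which overlapped (0.15, SE 0.33). Without the libraries that stood apart Gmnn was at 0.28 in SN and -0.034 in NSN.

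Mcm2, Mcm4, Mcm7 and Cdt1 overlapped between mCherry and Rnaseh1 in both stages. Mcm2 ran from 6.50 to 38.7 TPM over the 8 libraries, Mcm4 from 41.7 to 69.4, Mcm7 from 5.38 to 26.4 and Cdt1 from 14.5 to 61.0. The highest value of each of these 4 was in SN mCherry replicate 2, and the lowest of Mcm2 and Cdt1 was in NSN Rnaseh1 replicate 2, the libraries that stood apart. Without those libraries Mcm2, Mcm4 and Mcm7 were above 0 in SN (0.92, 0.097 and 0.16) and in NSN (0.0081, 0.10 and 0.11). Counted by libraries that do not overlap, 1 gene was higher (Mcmbp) and 3 were lower (Mcm3, Mcm5 and Mcm6) in NSN, where 10.3% and 22.6% of all genes were, and 2 were higher (Mcmbp and Gmnn) and 3 lower (Mcm5, Mcm6 and Cdc45) in SN, where 18.9% and 31.7% were. Mcmbp was picked on the SN contrast, so its place in the SN count is a description. Rank correlation of the log2 fold change with GC content was -0.29 in NSN and -0.45 in SN, and its part here was not tested.

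Between the stages with mCherry all 10 genes overlapped, while 8.43% of all genes were higher in SN and 19% lower without overlap. The 10 had log2 differences (SN minus NSN) from -0.22 for Gmnn to 0.53 for Mcm7. Mcmbp was at 16.9 and 23.6 TPM in SN and at 19.8 and 18.9 TPM in NSN, a difference of 0.045 (SE 0.36). With Rnaseh1, 3 genes were higher in SN without overlap, where 14.1% of all genes were: Mcmbp (2.69), Mcm2 (0.96) and Mcm3 (0.47). None was lower, where 12.5% were. Mcmbp was picked for its level in these SN Rnaseh1 libraries, so its place in this count is a description. The effect of Rnaseh1 in SN minus that in NSN was 2.64 for Mcmbp, which holds the contrast it was picked on, and lay between -0.83 for Mcm7 and 0.68 for Mcm2 for the other 9 genes, none past the threshold (limma adjusted p = 1 for each when rounded).

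Gmnn was the highest of the 10 in every group, and its libraries stood apart from those of the next gene in each. Mcm7 had the lowest mean of the 10 in all 4 NSN and SN groups, and overlapped the next gene in NSN Rnaseh1 (Mcm2) and in SN mCherry (Mcmbp). In the rescue set the lowest was Mcmbp with mCherry (14.2 ± 5.37 TPM, SD, n = 2), Mcm2 with Rnaseh1 (7.48 ± 1.07 TPM) and Mcmbp in the combined group (18.5 ± 4.38 TPM). With rescue mCherry, Cdc45, Mcm6 and Cdt1 did not differ beyond their spread. With SN mCherry each gene from Mcm5, second in the order, down to Mcm7 overlapped the next.

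The genes around the ring were counted in 5 lists by role, of which 83 genes were tested in the rescue set. Their counts for Rnaseh1 against mCherry stand beside 46.2% of all genes that fell and 20.3% that rose, and their medians beside -0.52. Of 9 origin recognition and loading genes, 6 fell and 1 rose with Rnaseh1 (median -0.94). Kat7, whose product acetylates histone H4 at origins, fell from 66.1 and 85.6 TPM to 13.1 and 14.4 TPM (-2.37, limma adjusted p = 1.33e-05). Cdc6, the ATPase that loads the ring with Cdt1, fell from 60.3 and 58.0 TPM to 19.7 and 19.1 TPM (-1.56). Orc5, a subunit of the origin recognition complex, fell from 750 and 753 TPM to 365 and 402 TPM (-0.97) while Orc4 rose by 1.18. None of these libraries overlapped, and with Supt6 added Kat7 was at 61.0 and 66.7 TPM, Cdc6 at 59.6 and 59.0 TPM and Orc5 at 846 and 875 TPM, each past the threshold against Rnaseh1.

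Of 14 helicase activation genes, 7 fell and 2 rose (median -0.24). The GINS subunits split: Gins2 fell from 164 and 167 TPM to 65.9 and 67.9 TPM (-1.29), and Gins1 rose from 132 TPM in both to 363 and 403 TPM (1.53, limma adjusted p = 7.76e-06). Gins3 was lower like Gins2, at 11.9 and 12.4 TPM with mCherry and 5.79 and 6.63 TPM with Rnaseh1. So was Gins4, at 239 and 222 TPM against 187 and 195 TPM, a difference that changed sign with the GC trend removed. With the GC trend removed Gins1 was at 1.82 and Gins2 at -0.041 (limma adjusted p = 0.702), and the list then had 4 that rose and 2 that fell. Mcm10, which helps to activate the ring, fell from 75.3 and 85.0 TPM to 24.6 and 28.9 TPM (-1.55).

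Of 26 fork genes, 17 fell and 5 rose (median -1.02). The single-strand binding protein RPA split by subunit: Rpa1 fell from 179 and 182 TPM to 36.4 and 34.8 TPM (-2.31), and Rpa3 rose from 217 and 207 TPM to 1067 and 927 TPM (2.23, limma adjusted p = 1.82e-06). Rpa2 was lower like Rpa1, at 115 and 113 TPM with mCherry and 31.7 and 23.1 TPM with Rnaseh1. Pold3, a subunit of DNA polymerase delta, fell from 174 and 185 TPM to 44.2 and 40.5 TPM (-2.06). Pcna, the sliding clamp, rose by 0.74. All of these libraries stood apart.

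Of 20 genes of licensing control, 7 fell and 3 rose (median -0.37), smaller shares in both directions than those of all genes, a difference that was not tested. Ddb1, part of the ubiquitin ligase that degrades Cdt1, fell from 97.5 and 135 TPM to 10.6 and 9.26 TPM (-3.41, limma adjusted p = 4.2e-06), and Ccna2, a cyclin partner of Cdk2, fell from 158 and 160 TPM to 76.3 and 80.6 TPM (-1.01). E2f5, a member of the E2F family of transcription factors, rose from 153 and 142 TPM to 363 and 380 TPM (1.33). Of 14 genes of ring removal and of histone chaperones that meet the ring, 5 fell and 5 rose (median -0.34). Asf1a rose from 157 and 155 TPM to 1189 and 1199 TPM (2.93, limma adjusted p = 6.89e-07), and its paralogue Asf1b fell from 355 and 333 TPM to 66.2 and 77.1 TPM (-2.25). Traip, a ubiquitin ligase that acts on the ring, fell from 30.4 and 32.0 TPM to 1.89 and 2.32 TPM (-3.38). The groups of Asf1a and Asf1b did not overlap in the rescue set, and with Supt6 added both were above mCherry, at 390 and 432 TPM and at 492 and 525 TPM.

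**Figure D5:**
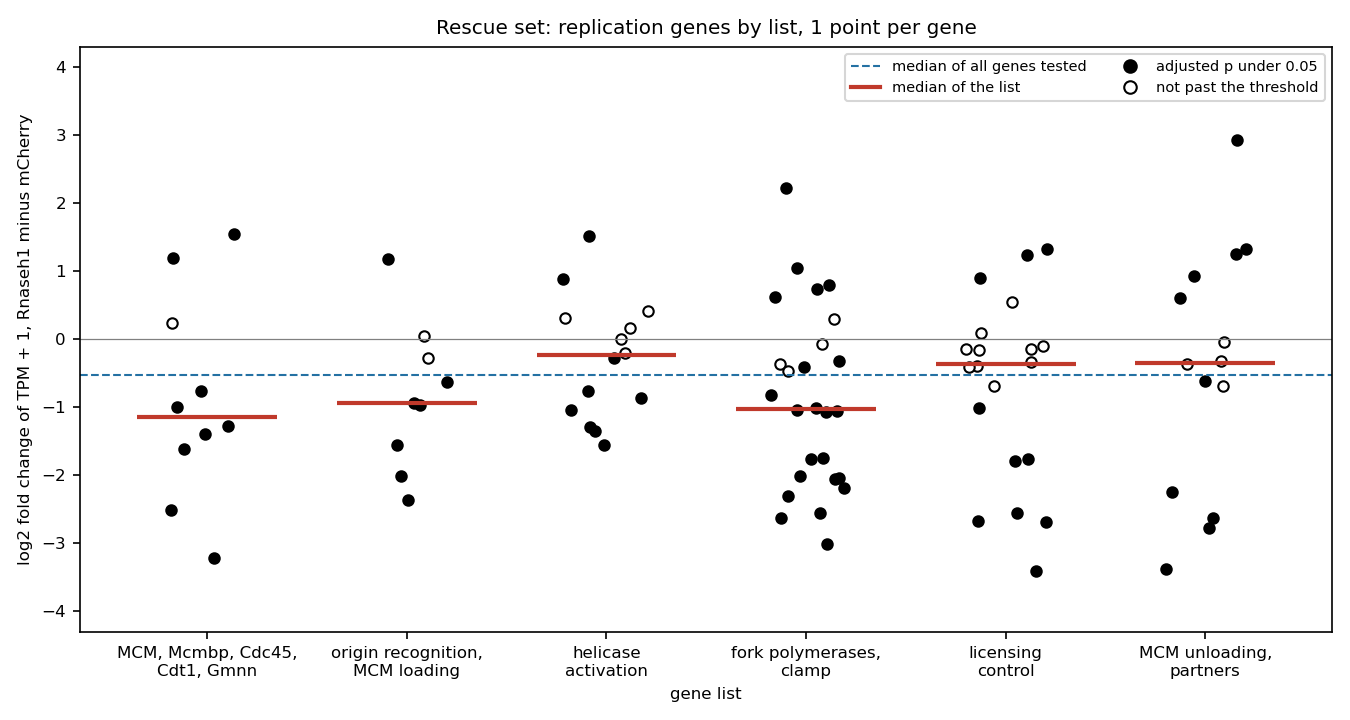
log2 fold change of TPM + 1 in the rescue set (Rnaseh1 minus mCherry) for the 10 genes and the 5 lists, 1 point per gene, filled where the limma adjusted p was under 0.05, with list medians (red) and the median of all genes tested (dashed, -0.52). Each list has filled points on both sides of 0, and the medians run from -1.14 for the 10 genes to -0.24 for helicase activation.

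Against mCherry, the combined group had 0 that rose and 1 that fell of the 9 origin genes, 0 and 0 of the 14 activation genes, 3 and 6 of the 26 fork genes, 1 and 2 of the 20 control genes and 2 and 0 of the 14 removal and chaperone genes, where 5.71% of all genes rose and 7.6% fell. Against Rnaseh1 alone these were 5 and 2, 4 and 2, 16 and 3, 7 and 3, and 6 and 4, where 41.6% of all genes rose and 17.4% fell. With the GC trend removed, the counts for Rnaseh1 against mCherry were 1 that rose and 5 that fell for origin genes, 9 and 16 for fork genes, 4 and 7 for control genes and 4 and 7 for removal and chaperone genes, where 27.6% of all genes rose and 28.9% fell. In NSN and SN oocytes 0 genes of these lists passed the threshold.

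At an unadjusted p under 0.05, limma gave 5 of the 82 listed genes tested in SN (6.1%, against 6.74% of all genes) and 2 in NSN (2.44%, against 2.77%), shares near those of all genes. None passed after adjustment (limma adjusted p = 0.61 for those in SN and 0.755 for those in NSN), and their values are given as a description. Cdc7, the kinase that activates the ring, was at 10.2 and 19.4 TPM with SN mCherry and at 38.2 and 64.4 TPM with SN Rnaseh1 (1.74). Nasp, a histone chaperone, was at 176 and 139 TPM against 334 and 372 TPM (1.17), and Cul4a, a scaffold of the ligase that degrades Cdt1, at 7.10 and 11.6 TPM against 19.0 and 16.7 TPM (0.90). All 3 were higher in both SN Rnaseh1 libraries, while Pold4, a small subunit of DNA polymerase delta, was lower, at 9.21 and 17.6 TPM with mCherry against 3.96 and 0.94 TPM with Rnaseh1 (-2.15). Cdkn1c, a cyclin-dependent kinase inhibitor, was at 2.1 and 2.7 TPM against 12.02 and 9.24 TPM in SN (1.77) and at 8.49 and 6.80 TPM against 2.71 and 3.26 TPM in NSN (-1.11). Rbl2, a relative of the retinoblastoma protein that binds E2F factors, was at 3.49 and 3.08 TPM against 1.16 and 0.79 TPM in NSN (-1.12). In the rescue set Cdc7 fell (-0.75, limma adjusted p = 0.0228) and Nasp rose (0.60, limma adjusted p = 0.0032), but with the GC trend removed Nasp was at 0.16 and did not pass (limma adjusted p = 0.265). Pold4 fell there too (-2.56, limma adjusted p = 0.000153), and still passed with the GC trend removed (-0.93, limma adjusted p = 0.0205). Cul4a (-0.10), Cdkn1c (0.55) and Rbl2 (-0.69) did not pass in the rescue set. With the GC trend removed Cdkn1c was at 2.26 and passed (limma adjusted p = 0.00137).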

How the data were processed

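Polyadenylated RNA was reverse-transcribed with SuperScript II, amplified with KAPA HiFi and made into libraries with a Vazyme kit, per the labels' protocols. The authors deposited TPM values per gene in a table of 8 NSN and SN libraries and another of 6 rescue libraries, which were analysed separately. The build mm10 and the tools RSEM 1.3.3, STAR 2.7.0d, Trim Galore 0.6.7 and DESeq2 are listed, with no role stated, per the submitters' processing notes. Read depth, and with it counting error, is unknown because TPM does not retain it. Strand use is not given in the sources used here, so reads that Cdc45 may share with Ufd1, or Mcm7 with Ap4m1, whose annotated exons lie in their upstream windows, cannot be told apart.

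Of 35389 Ensembl identifiers, 35319 were paired with a symbol. Genes at 1 TPM or more in 2 or more libraries were fitted on log2(TPM + 1), a scale that understates changes of low genes, with limma 3.58.1 in R 4.3.3 (group means over all groups of a table, trended variance, Benjamini-Hochberg adjustment over 12736 or 12859 genes, threshold 0.05). "Rose" and "fell" are used past that threshold only. Gene positions and transcript GC content came from GENCODE M21 (GRCm38). The GC trend was removed per library with a lowess curve (span 0.3), and libraries were centred on the median of genes whose mean TPM was 10 or more. The fit was tested on simulated data.

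The 10 genes and the 5 lists were chosen with earlier results of these data known. Of each list, the 3 genes with the smallest p between rescue Rnaseh1 and mCherry were named, and those with an unadjusted p under 0.05 and no overlap in NSN or SN. Orc4, Pcna, Rpa2, Gins3 and Gins4 were added after their values were seen. Of 86 listed genes, those absent from a table or under the filter were not tested.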

Additional observations from a re-analysis of the deposited data

Results flagged for a closer look

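Mcm3 differed from mCherry in opposite directions in 2 sets: both NSN Rnaseh1 libraries were below both mCherry libraries (-0.51 on the log2 scale) and both rescue Rnaseh1 libraries were above theirs (0.24). Neither of these 2 differences passed the threshold, and the difference between them was not tested, since the tables are separate. After median centring Mcm3 was at -0.19 in NSN and 0.82 in the rescue set. With the GC trend removed it was at -0.063 in NSN and 1.37 in the rescue set. The NSN value passed in neither.

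Cdkn1c was higher with Rnaseh1 in both SN libraries (1.77) and lower in both NSN libraries (-1.11). The test of that difference gave 2.88 (limma, unadjusted p = 0.00137, adjusted p = 1 when rounded). Its levels were low, at 12.02 TPM or less in the 8 libraries.

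Gins1 was slightly higher in both SN Rnaseh1 libraries (0.074) and lower in both NSN Rnaseh1 libraries (-0.32). The difference of 0.39 did not pass (limma, unadjusted p = 0.382, adjusted p = 1 when rounded).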

How the results depend on the processing

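The number of the 10 genes past the threshold was recomputed under 20 alternatives in NSN and SN comparisons (19 for the difference between stages) and 17 in rescue comparisons. It was 0 for NSN throughout. For Rnaseh1 against mCherry in SN it was 1 (Mcmbp) without both libraries that stood apart, an alternative chosen after seeing the data that leaves SN mCherry and NSN Rnaseh1 with 1 library each, assumed to vary like the other groups. It was 0 otherwise, and Mcmbp was picked on this contrast. For SN against NSN with Rnaseh1 it was 0 wherever both groups compared kept 2 libraries, and fits that left 1 are not counted. When single libraries were left out, Mcmbp ran from 2.48 to 2.90 in this comparison. It was picked for its level in the same SN Rnaseh1 libraries, so these values are a description. Between rescue Rnaseh1 and mCherry it ran from 8 to 10. For Rnaseh1 plus Supt6 against mCherry the 5 calls became 3 with no filter, 3 with the GC trend removed and 2 with the replicate block and the GC trend removed, and 0 to 6 when single libraries were left out. With the GC trend removed, alone or with the replicate block, Cdt1 changed sign for Rnaseh1 against mCherry (0.045), and Mcm5 (-0.081), Mcm7 (-0.35) and Cdt1 (-0.54) did for Rnaseh1 plus Supt6 against Rnaseh1. The cause was not tested. Of the 170 single-gene alternatives for Rnaseh1 against mCherry, 161 kept direction and side of the threshold.

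Libraries with the same replicate number showed little shared deviation: correlations of their deviations were 0.065 in SN, 0.17 in NSN and 0.038 or less in the rescue set. Across stages they ran from -0.51 (NSN Rnaseh1 with SN mCherry, the groups with the libraries that stood apart) to -0.037. With 2 libraries a group, these values cannot tell whether equal numbers mark a shared preparation. The replicate block left the counts at 9, 5 and 9 in the 3 rescue comparisons and 0 in the others. With 2 libraries a group and no read depth, small differences cannot be resolved, least of all in NSN and SN. In those stages even the overexpressed Rnaseh1 did not pass.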
